A study of Homo sapiens with 15 samples.

Results

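MIA PaCa-2 cells treated with BAQ12 nanoparticles (NPs) were compared with cells treated with vehicle over all genes of the deposited libraries. The comparison took 6 of the 15 libraries of the study, which were replicates 1 to 3 labelled with the agent BAQ12 and replicates 1 to 3 labelled as control. MIA PaCa-2 is an established human pancreatic carcinoma line. BAQ12 belongs to the bisaminoquinolines. Its parents are Lys05, which blocks autophagy, and MSDH, a detergent that collects in lysosomes, and in water its molecules gather into particles. It was given at 5 µM for 24 h, and the vehicle cells were kept for the same 24 h without it. What the vehicle consisted of is not stated. The labels name no genetic change in any group, and all libraries come from this cell line alone. The other 9 libraries were from cells given Lys05, BAQ13 NPs or a compound labelled BAQ12O, each at 5 µM for 24 h. Nothing in the labels states that the 3 libraries of a group came from separate cultures, so the p-values measure the spread between libraries, which may be technical.

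Weak bases that enter the lysosome are protonated there and trapped, which raises the lysosomal pH and impairs the breakdown of its cargo. Cholesterol carried in by low-density lipoprotein leaves the lysosome through NPC2 and NPC1. When little of it reaches the endoplasmic reticulum, the sterol regulatory element-binding proteins (SREBPs) are cut free and switch on the genes of cholesterol and fatty acid synthesis. TFEB and its relatives, which are held in the cytoplasm by mTORC1, switch on genes of lysosomes and autophagy. The mitochondrial genome is transcribed from both strands as long precursors, from which the rRNAs, tRNAs and mRNAs of respiratory chain subunits are cut.

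The deposited values are read counts of genes scaled by a size factor per library and are called normalised counts here. Differences are given as log2 fold changes (log2FC) of the normalised count + 1. The 6 libraries held between 1754599 and 2500551 reads on genes, BAQ12 replicate 3 having the fewest. Of 60107 genes listed, 19817 had a read in these 6 libraries and 10495 had enough reads to be tested. The identity of the line was checked against marker lists. VIM, the intermediate filament of mesenchymal cells, was between 9198 and 10701 normalised counts in the 6 libraries. CDKN2A and MTAP, neighbouring genes that this line is known to have lost, had 0 reads in all 15 libraries. Of 10 epithelial markers, 4 had more than 3 reads in any of the 6 libraries, EPCAM was at 0 in all 6, and the summed level was 560.5 to 582.9 with vehicle and 576.3 to 628.0 with BAQ12 NPs. Most of that sum came from KRT19 (509, 486 and 492 with vehicle, 532, 474 and 499 with BAQ12 NPs) and then CLDN4. CDH1, also listed as lost or low in this line, was at 0.83, 0 and 0 with vehicle and at 0.92, 0.85 and 6.28 with BAQ12 NPs. The markers of acinar cells were all at 0. Those of leukocytes summed to 4.5 to 7.3 normalised counts with vehicle and 6.8 to 13.8 with BAQ12 NPs, those of endocrine cells to 2.2 to 8.3 and 5.0 to 8.3, and those of erythroid cells to 0 and 0 to 3.8. Endothelial markers summed to 50.2 to 58.9 and 23.9 to 57.8, all from CDH5, and KDR, PECAM1, TEK and VWF were at 0 in these libraries. Fibroblast markers summed to 259.1 to 290.1 and 177.9 to 200.6, mostly from COL1A2, while DCN, LUM and PDGFRB were at 0.

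Replicate 3 of BAQ12 stood apart from replicates 1 and 2. On the log2 scale it correlated with them across genes at r = 0.930 and 0.939, against 0.982 between replicates 1 and 2, and its highest correlation was with BAQ13 replicate 1 (r = 0.968). Genes are not independent replicates, and these values are descriptions. In replicate 3, 1296 genes (12.3% of those tested) differed more than 2-fold from the mean of the other BAQ12 libraries, against 101 to 347 genes for any other library and its group. It held the highest value of all 15 libraries for 2247 genes and the lowest for 2305. Among genes with at least 50 normalised counts in replicate 3 or in the mean of the other pair, the 5 furthest below that mean were TMSB4X, PFN1, C1QBP, NFS1 and EIF4A3, and the 5 furthest above were ARSA, MTRNR2L3, PAQR7, VPS18 and JOSD2. TMSB4X, which encodes the actin-sequestering peptide thymosin beta 4, was at 871, 1068 and 1156 normalised counts in vehicle replicates 1 to 3 and at 1545, 1105 and 77.9 in BAQ12 replicates 1 to 3. PFN1, the actin-binding protein profilin, was at 115, 141 and 120.2 with vehicle and at 139, 109.7 and 11.3 with BAQ12 NPs. ARSA, the lysosomal arylsulfatase A, was at 14.1, 13.4 and 25.7 with vehicle and at 12.8, 11.9 and 60.3 with BAQ12 NPs. For PFN1 and ARSA replicates 1 and 2 lay near vehicle and replicate 3 lay far from both. For TMSB4X replicate 1 lay above every vehicle library, replicate 2 within their range and replicate 3 far below. The difference of replicate 3 from vehicle ran with the GC content of the transcripts (Spearman's rho = 0.33 across 6819 genes), against -0.01 and 0.06 in BAQ12 replicates 1 and 2. In BAQ13 replicates 1 and 2 it was 0.29 and 0.21, and in the other libraries between -0.08 and 0.16. The part of GC content in this deviation was not tested. Calls and most fold changes of named genes are therefore given below with all 6 libraries and without replicate 3.

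**Figure D1:**
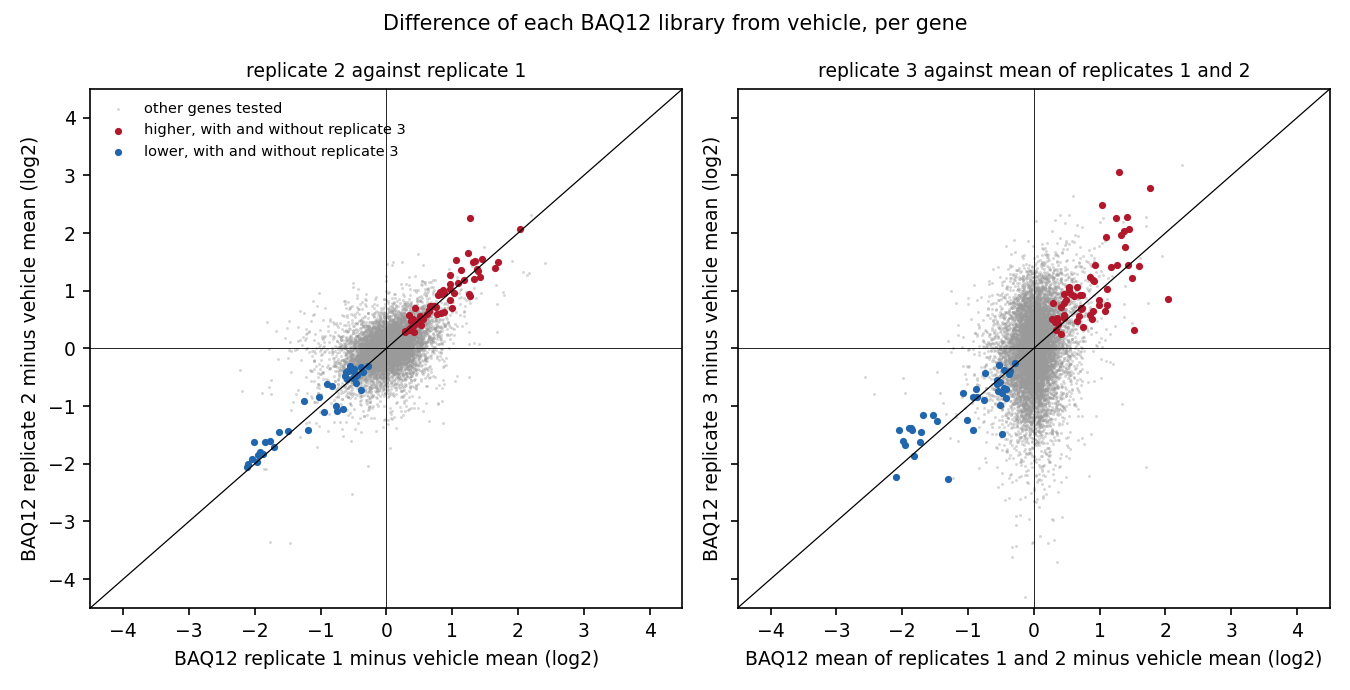
Each point is a gene tested, at its difference from the vehicle mean on the log2(normalised count + 1) scale, with BAQ12 replicate 2 against replicate 1 (left) and replicate 3 against the mean of replicates 1 and 2 (right). Red and blue mark genes higher or lower than vehicle with and without replicate 3, and the diagonal marks equal values. The cloud of grey points is stretched along the vertical axis on the right. Across the 6819 genes used for GC content, the SD of the difference was 0.571 for replicate 3 and 0.248 and 0.24 for replicates 1 and 2. The coloured points lie on the same side of 0 in replicate 3 as in the other libraries. They were chosen partly by a fit that held replicate 3, so their side is largely set by that choice.

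BAQ12 NPs raised 60 genes (0.572% of those tested) and lowered 43 (0.410%) relative to vehicle at an adjusted p under 0.05 by limma. Without replicate 3, 78 genes were higher (0.743%) and 59 lower (0.562%). In both fits and in the same direction 56 genes were higher (0.534%) and 37 lower (0.353%), and these are the genes said below to have risen or fallen with and without replicate 3. Of the 56 genes 30, and of the 37 genes 18, also passed whichever 1 of the 6 libraries was left out. At an unadjusted p under 0.05 there were 1239 genes, and 969 without replicate 3, where 5% of the genes tested would be 525. By the looser rule of a 2-fold change or more with an unadjusted p up to 0.05, 61 genes were higher (0.581%) and 47 lower (0.448%). Without replicate 3, 54 (0.515%) and 47 (0.448%) met it, and 37 (0.353%) and 31 (0.295%) met it both times. The BAQ12 and vehicle libraries did not overlap for 813 higher genes (7.75%) and 799 lower genes (7.61%). The counts depended on the libraries that set the spread. The total of 103 became 61, 60 and 56 without vehicle replicate 1, 2 or 3, 31 in a fit on the 6 libraries alone and 325 in a fit on the 5 left without BAQ12 replicate 3.

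**Figure D2:**
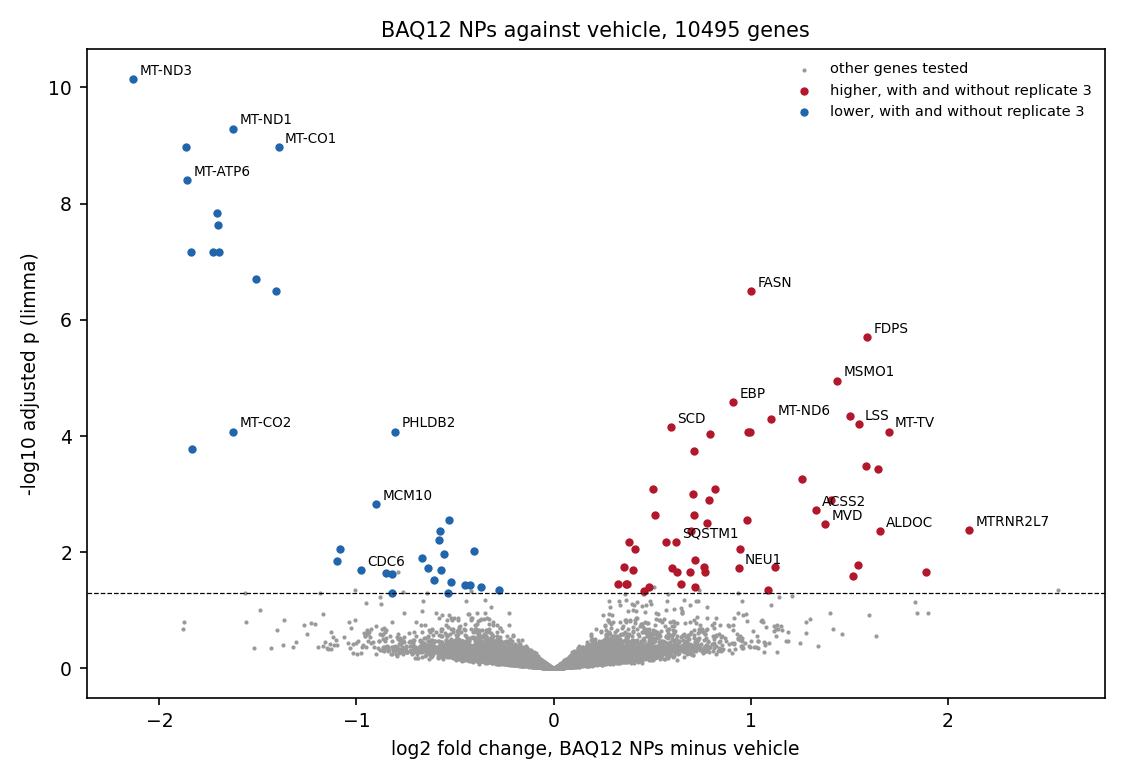
Each point is 1 of the 10495 genes, at its log2 fold change between BAQ12 NPs and vehicle and the -log10 of its adjusted p by limma, with the dashed line at 0.05. Red and blue mark the 56 higher and 37 lower genes that passed with and without replicate 3. Mitochondrial mRNAs such as MT-ND3 form the lower group with the smallest p, and genes of sterol and fatty acid synthesis such as FASN, FDPS and MSMO1 the higher group.

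Of the 41 distinct members of the function lists that passed with all libraries, 25 were higher and 16 lower, out of 582 members tested, and the same counts held for members that passed with and without replicate 3. The mitochondrial mRNAs held 13 of them and cholesterol synthesis 10, and the lists with the next most members were fatty acid synthesis and DNA replication with 3 each. The lists were compiled with earlier results of these data known, so their counts are descriptions. Each function list given below with 0 genes that passed against vehicle also held 0 by limma without replicate 3. The counts of list members at an unadjusted p under 0.05 against vehicle stand beside 1239 of all 10495 genes tested, and 969 without replicate 3.

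**Figure D3:**
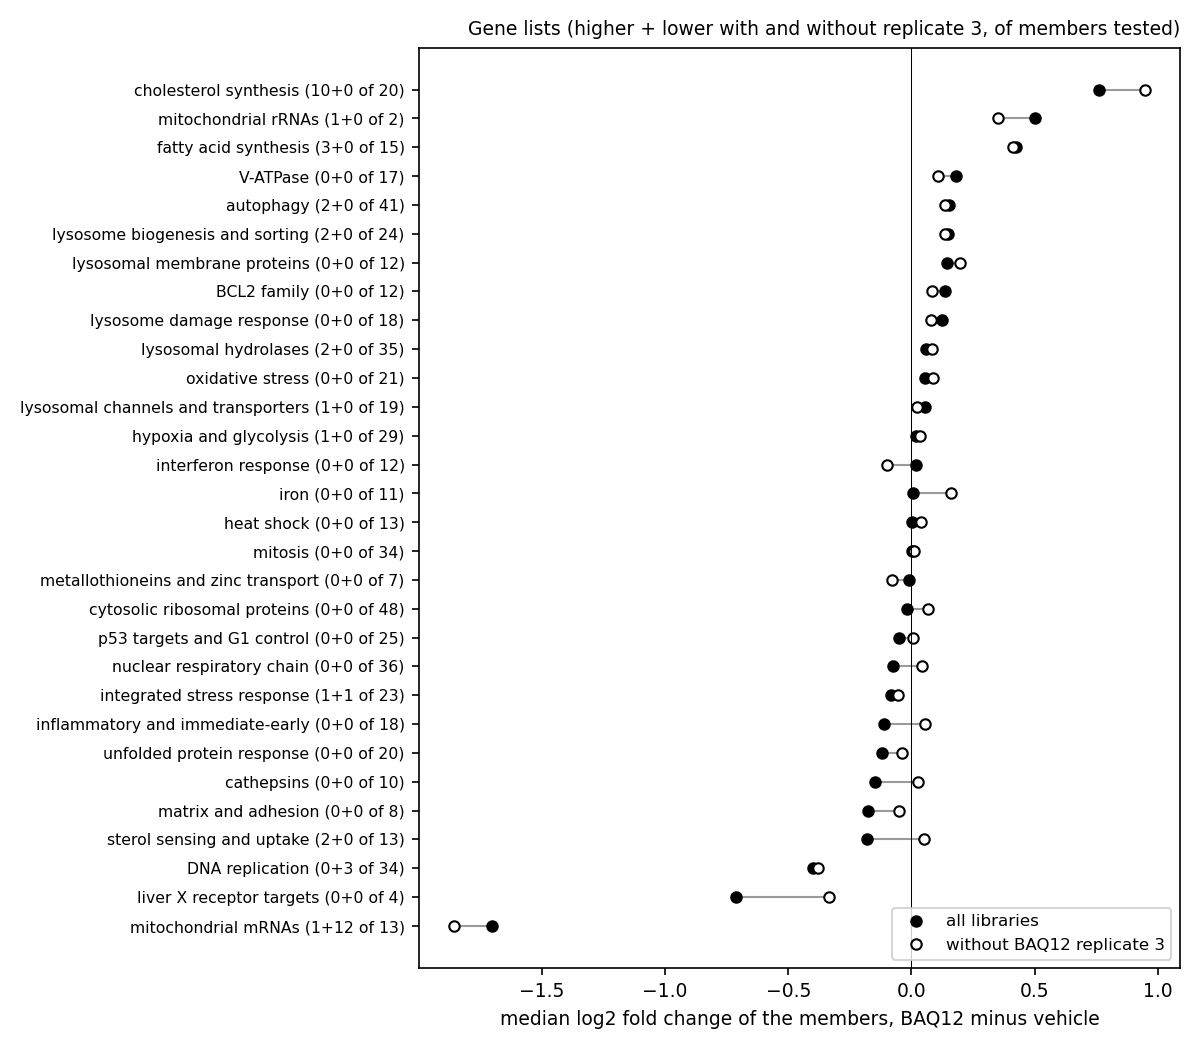
Each row is a gene list, with the median log2 fold change of its tested members between BAQ12 NPs and vehicle in all libraries (filled) and without BAQ12 replicate 3 (open). The numbers beside each name are the members higher plus lower with and without replicate 3, of the members tested. Cholesterol synthesis lies furthest to the right (0.76 and 0.95) and mitochondrial mRNAs furthest to the left (-1.70 and -1.86), and the other lists lie nearer to 0.

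Of the 20 enzymes of cholesterol synthesis listed, all of which were tested, 10 rose with BAQ12 NPs with and without replicate 3 and 0 fell, against 0.534% of all genes higher. The median log2 fold change was 0.76, and 0.95 without replicate 3, where the median over all genes was -0.001 and 0.007. The libraries did not overlap for 14 of the 20, all higher, against 7.75% of all genes. Of the 10 genes, 8 passed in every fit that left out 1 library.

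To show the sequence in front of these genes, 4 promoters are printed, each of 300 bases from 250 before to 50 after the start of the gene in RefSeq on GRCh38.p14, written 5′ to 3′ on the strand of the gene. HMGCS1 lies at chr5:43313363-43313662 (minus strand), FDPS at chr1:155308616-155308915 (plus strand), MSMO1 at chr4:165327419-165327718 (plus strand) and LSS at chr21:46228725-46229024 (minus strand). Capitals mark CCAAT on either strand, the box that NF-Y binds and that often stands beside SREBP sites.
HMGCS1: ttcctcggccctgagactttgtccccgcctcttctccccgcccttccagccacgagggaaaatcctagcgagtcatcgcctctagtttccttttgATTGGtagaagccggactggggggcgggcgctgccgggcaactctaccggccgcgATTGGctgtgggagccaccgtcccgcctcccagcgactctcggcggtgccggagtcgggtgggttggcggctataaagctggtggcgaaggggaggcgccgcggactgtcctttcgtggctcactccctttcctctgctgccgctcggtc
FDPS: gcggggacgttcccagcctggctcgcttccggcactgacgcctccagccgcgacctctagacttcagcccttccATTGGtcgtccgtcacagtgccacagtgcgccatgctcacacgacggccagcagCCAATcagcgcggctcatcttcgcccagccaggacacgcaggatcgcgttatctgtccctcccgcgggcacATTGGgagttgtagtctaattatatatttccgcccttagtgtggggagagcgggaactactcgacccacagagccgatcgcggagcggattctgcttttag
MSMO1: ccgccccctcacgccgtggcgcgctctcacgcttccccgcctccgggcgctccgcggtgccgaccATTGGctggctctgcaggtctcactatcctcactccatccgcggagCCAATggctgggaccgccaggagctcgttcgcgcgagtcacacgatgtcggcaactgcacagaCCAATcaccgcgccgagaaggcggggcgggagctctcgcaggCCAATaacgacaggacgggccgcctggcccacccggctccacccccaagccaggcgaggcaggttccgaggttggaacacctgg
LSS: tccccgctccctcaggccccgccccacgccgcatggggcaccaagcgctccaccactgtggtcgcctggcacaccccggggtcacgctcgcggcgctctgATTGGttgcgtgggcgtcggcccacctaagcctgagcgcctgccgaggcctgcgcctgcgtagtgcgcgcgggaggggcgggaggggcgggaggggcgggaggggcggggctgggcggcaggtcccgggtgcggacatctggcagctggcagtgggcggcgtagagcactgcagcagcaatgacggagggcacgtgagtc
RefSeq promoters were matched for 15 of the 20 genes. CCAAT was found in 12 of the 15 (80.0%), against 35.7% of all 27305 promoters of that length, which were not limited to the genes tested. In the DNA replication list, whose median was below 0, it was found in 18 of 30 matched promoters (60.0%). A sterol regulatory element written as TCACNCCAC was found in 0 of the 15, against 1.15% of all promoters. These are matches of letters in a short window and not measurements of binding.

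Among the early enzymes, which build the isoprenoid units, 4 of 8 rose with and without replicate 3. FDPS, the farnesyl diphosphate synthase that feeds both sterols and prenylation (ENSG00000160752, chromosome 1, 155308748 to 155320666 in GRCh38), was at 263, 240.1 and 253 normalised counts in the vehicle libraries and at 662, 640.1 and 1041 in BAQ12 replicates 1 to 3. All 3 treated libraries lay above all vehicle libraries, with replicate 3 the highest. Its log2FC was 1.59 ± 0.14 (SE, n = 3 per group, adjusted p = 2e-06), and 1.37 ± 0.09 without replicate 3 (adjusted p = 1.3e-11). MVD, the mevalonate diphosphate decarboxylase (ENSG00000167508, chromosome 16, 88651935 to 88663161 in GRCh38), was at 27.4, 23.4 and 16.5 with vehicle and at 54.1, 43.4 and 86.7 with BAQ12 NPs, again with replicate 3 highest. MVD rose by a log2FC of 1.38 ± 0.23 (SE, n = 3 per group, adjusted p = 0.0033), and 1.10 ± 0.21 without replicate 3 (adjusted p = 0.0021). HMGCS1, the cytosolic HMG-CoA synthase (ENSG00000112972, chromosome 5, 43289395 to 43313512 in GRCh38), was at 59.8, 56.9 and 55.1 with vehicle and at 183, 152 and 71.6 with BAQ12 NPs. Here replicate 3 lay just above the vehicle libraries and far below the other treated libraries. HMGCS1 rose by a log2FC of 1.12 ± 0.22 (SE, n = 3 per group, adjusted p = 0.018), and 1.53 ± 0.12 without replicate 3 (adjusted p = 7e-10), and of the 6 fits that left out 1 library it passed only in that one (highest adjusted p = 0.095). ACAT2, the cytosolic acetoacetyl-CoA thiolase, was at 134, 143 and 129 with vehicle and at 239, 269 and 214 with BAQ12 NPs. ACAT2 rose by a log2FC of 0.82 ± 0.12 (SE, n = 3 per group, adjusted p = 0.00082), and 0.90 ± 0.12 without replicate 3 (adjusted p = 8.9e-06). IDI1, the isopentenyl diphosphate isomerase, was at 38.2, 40.2 and 42.2 with vehicle and 87.1, 79.1 and 35.2 with BAQ12 NPs, replicate 3 being below every vehicle library. It passed only without replicate 3. IDI1 had a log2FC of 0.62 ± 0.27 (adjusted p = 0.38, without replicate 3 1.03, adjusted p = 0.0016).

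Of the 12 enzymes that lead from squalene to cholesterol, 6 rose with and without replicate 3. FDFT1, the squalene synthase, was at 205, 213 and 232 normalised counts with vehicle and 459, 476 and 364 with BAQ12 NPs. FDFT1 rose by a log2FC of 0.99 ± 0.12 (SE, n = 3 per group, adjusted p = 8.6e-05), and 1.11 ± 0.10 without replicate 3 (adjusted p = 1.9e-08). SQLE, the squalene epoxidase, was at 144, 126 and 133 with vehicle and at 222, 225 and 256 with BAQ12 NPs, with the 3 treated libraries close together. SQLE rose by a log2FC of 0.80 ± 0.10 (SE, n = 3 per group, adjusted p = 9.2e-05), and 0.73 ± 0.10 without replicate 3 (adjusted p = 2.6e-05). LSS, the lanosterol synthase that closes the rings, was at 32.4, 45.8 and 35.8 with vehicle and 103, 90.1 and 151 with BAQ12 NPs, a log2FC of 1.55 ± 0.18 (SE, n = 3 per group, adjusted p = 6.3e-05), and 1.33 ± 0.16 without replicate 3 (adjusted p = 2.9e-06). MSMO1, the sterol C4 methyl oxidase (ENSG00000052802, chromosome 4, 165327623 to 165343160 in GRCh38), was at 69.7, 51.4 and 75.3 with vehicle and at 166, 187 and 178 with BAQ12 NPs. Replicate 3 lay between the other treated libraries for this gene, and the log2 fold change was 1.44 ± 0.14 (SE, n = 3 per group, adjusted p = 1.1e-05), and 1.43 ± 0.15 without replicate 3 (adjusted p = 9.7e-08). EBP, the sterol isomerase, was at 186, 198 and 189 with vehicle and at 372, 390.2 and 322 with BAQ12 NPs. EBP rose by a log2FC of 0.91 ± 0.10 (SE, n = 3 per group, adjusted p = 2.6e-05), and 0.99 ± 0.10 without replicate 3 (adjusted p = 2.6e-08). SC5D, the lathosterol desaturase, was at 20.8, 13.4 and 14.7 with vehicle and at 32.1, 40.0 and 33.9 with BAQ12 NPs. SC5D rose by 1.09 ± 0.25 (adjusted p = 0.045, without replicate 3 1.11, adjusted p = 0.03) on the log2 scale, and lost its call without vehicle replicate 2 or 3 or BAQ12 replicate 1 or 2 (highest adjusted p = 0.26). TM7SF2, a sterol reductase and the only member with a log2 fold change below 0 in all libraries, named after its values were seen, was at 77.2, 74.8 and 60.6 with vehicle and at 78.9, 57.8 and 62.8 with BAQ12 NPs, and its groups overlapped.

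**Figure D4:**
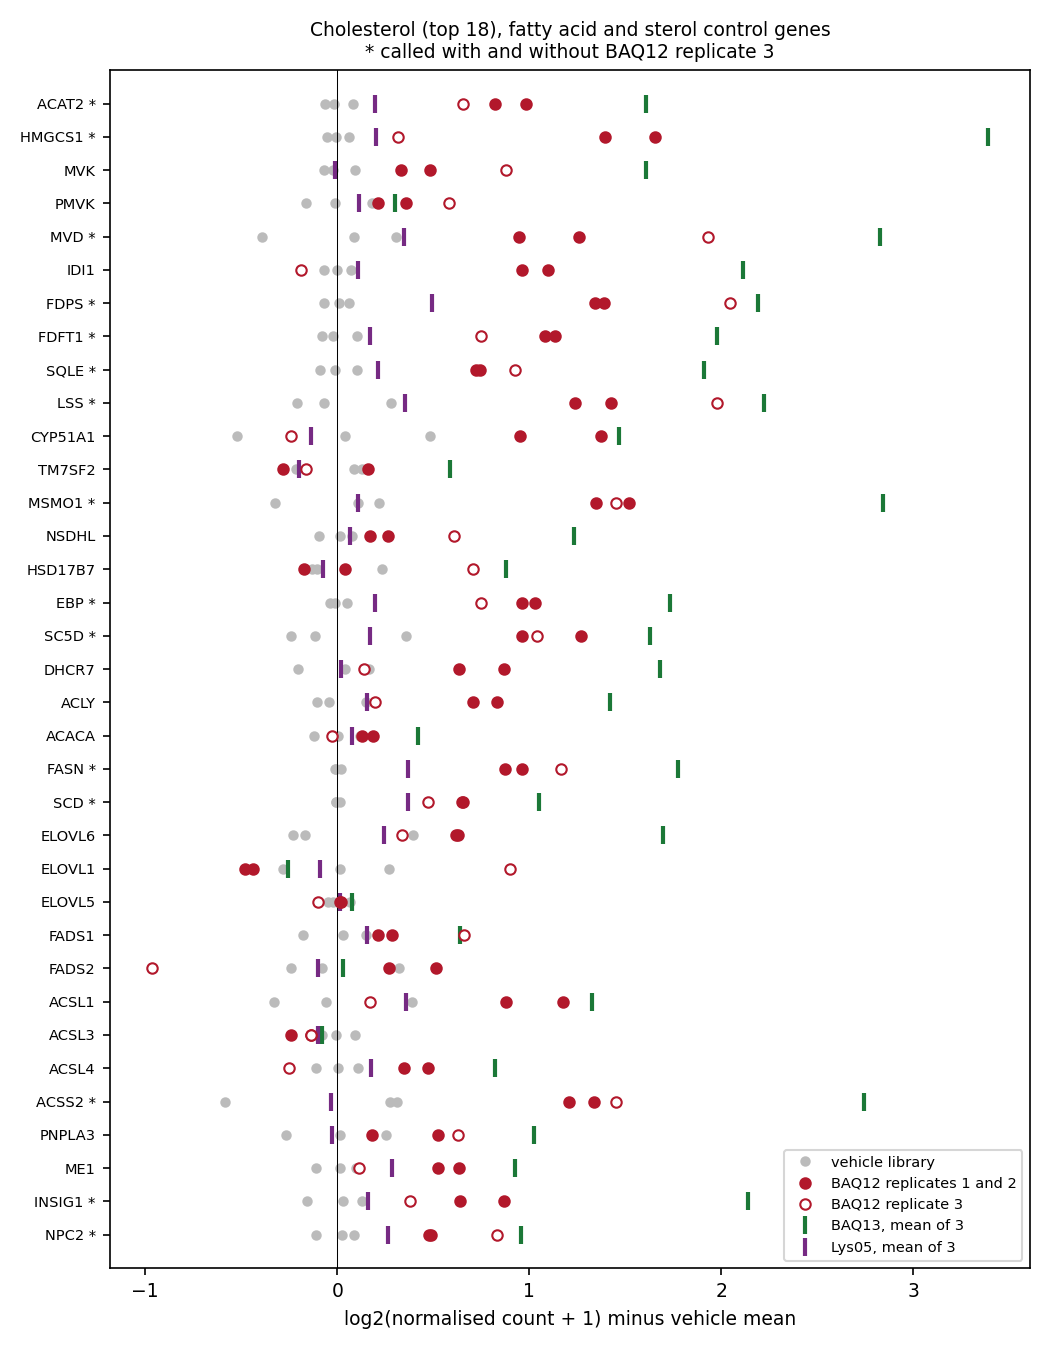
Each row is a gene, with its log2(normalised count + 1) minus the vehicle mean in the vehicle libraries (grey), BAQ12 replicates 1 and 2 (red) and BAQ12 replicate 3 (open), and the means of the 3 BAQ13 and the 3 Lys05 libraries (green and purple bars). The top rows are 18 of the 20 genes of cholesterol synthesis, followed by fatty acid synthesis, INSIG1 and NPC2, and an asterisk marks the genes that passed with and without replicate 3. For HMGCS1 and IDI1 the open point lies beside the vehicle points.

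In fatty acid synthesis, 3 of the 15 members tested rose with and without replicate 3 and 0 fell, against 0.534% of all genes higher, and the median log2 fold change was 0.42 and 0.41. FASN, the fatty acid synthase (ENSG00000169710, chromosome 17, 82078333 to 82098332 in GRCh38), was at 496, 495 and 506 normalised counts with vehicle and 915, 973 and 1122 with BAQ12 NPs. Its groups were well apart, and its log2 fold change was 1.00 ± 0.08 (SE, n = 3 per group, adjusted p = 3.2e-07), and 0.92 ± 0.07 without replicate 3 (adjusted p = 3.1e-10). SCD, the stearoyl-CoA desaturase, was at 1646, 1620.2 and 1620.2 with vehicle and at 2557, 2569 and 2259.7 with BAQ12 NPs. SCD rose by a log2FC of 0.59 ± 0.07 (SE, n = 3 per group, adjusted p = 7e-05), and 0.65 ± 0.06 without replicate 3 (adjusted p = 3.2e-08). ACSS2, which makes acetyl-CoA from acetate, was at 15.8, 30.1 and 29.4 with vehicle and at 62.4, 57.0 and 67.8 with BAQ12 NPs, with the 3 treated libraries in a narrow range above vehicle. ACSS2 rose by a log2FC of 1.33 ± 0.21 (SE, n = 3 per group, adjusted p = 0.0019), and 1.27 ± 0.22 without replicate 3 (adjusted p = 0.00078). These 3 genes also passed in every fit that left out 1 library. ACLY, the ATP citrate lyase, was at 318, 267 and 278 with vehicle and at 511, 468 and 329 with BAQ12 NPs and passed only without replicate 3. ACLY had a log2FC of 0.58 ± 0.14 (adjusted p = 0.07, without replicate 3 0.77, adjusted p = 3.3e-05). ME1, the malic enzyme that supplies NADPH, was at 66.4, 77.0 and 72.5 with vehicle and at 104, 112 and 77.9 with BAQ12 NPs, with an adjusted p of 0.21, or 0.017 without replicate 3.

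Of 13 sterol sensing and uptake genes tested, INSIG1 and NPC2 rose with and without replicate 3, and 0 fell, against 0.534% of all genes higher. INSIG1, the endoplasmic reticulum protein that retains SREBP and is itself an SREBP target, was at 108, 132 and 123 normalised counts with vehicle and 221, 188 and 157 with BAQ12 NPs. The groups did not overlap, and replicate 3 was the lowest treated library. INSIG1 rose by a log2FC of 0.63 ± 0.13 (SE, n = 3 per group, adjusted p = 0.022), and 0.75 ± 0.12 without replicate 3 (adjusted p = 0.00023), and NPC2, the lysosomal cholesterol carrier, by 0.60 ± 0.12 (SE, n = 3 per group, adjusted p = 0.019), and 0.48 ± 0.11 without replicate 3 (adjusted p = 0.018), from 201, 175 and 193 to 266, 264 and 338. Both lost the call without vehicle replicate 3 (highest adjusted p over the fits that left out 1 library, 0.12 and 0.14), and INSIG1 also without vehicle replicate 1 or BAQ12 replicate 1 or 2, NPC2 also without vehicle replicate 2. SREBF2, the gene of the SREBP that drives sterol genes, was at 119, 125 and 106 with vehicle and at 146, 139 and 187 with BAQ12 NPs. SREBF2 had a log2FC of 0.42 ± 0.12 (adjusted p = 0.13, without replicate 3 0.28, adjusted p = 0.36). SREBF1 was at 46.5, 58.1 and 61.5 with vehicle and at 34.9, 43.4 and 42.7 with BAQ12 NPs, with a log2FC of -0.45 ± 0.18 (adjusted p = 0.34, without replicate 3 -0.49, adjusted p = 0.37). The list of liver X receptor targets, which answer to oxysterols, also holds the receptor gene NR1H2. Of its 4 genes tested, NR1H2 among them, 0 passed by limma, edgeR or DESeq2 (3 at an unadjusted p under 0.05). ABCG1, a cholesterol exporter, was at 23.2, 23.4 and 25.7 with vehicle and at 14.7, 8.50 and 11.3 with BAQ12 NPs, below vehicle in every treated library. ABCG1 had a log2FC of -1.04 ± 0.30 (adjusted p = 0.16, without replicate 3 -1.04, adjusted p = 0.2), and ABCA1 was at 10.8, 8.93 and 9.18 with vehicle and at 7.34, 8.50 and 3.77 with BAQ12 NPs.

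The lowest median of the lists was that of the mitochondrial mRNAs. All 12 mRNAs read from the heavy strand were lower with BAQ12 NPs, with and without replicate 3 and whichever 1 of the 6 libraries was left out, against 0.353% of all genes lower with and without replicate 3. Their log2 fold changes ran from -2.13 to -1.39 with a median of -1.71, and from -2.09 to -1.30 with a median of -1.86 without replicate 3. Together they made up 6.07%, 6.07% and 5.91% of all normalised counts in vehicle replicates 1 to 3 and 1.66%, 1.75% and 2.07% in BAQ12 replicates 1 to 3, so that the 3 treated libraries were all far below vehicle, with replicate 3 the highest of them. MT-ND3, a subunit of complex I (ENSG00000198840, mitochondrial genome, 10059 to 10404), was at 9729.5, 10324 and 10062 normalised counts with vehicle and 2315, 2407 and 2143 with BAQ12 NPs. Its log2FC was -2.13 ± 0.09 (SE, n = 3 per group, adjusted p = 7.1e-11), and -2.09 ± 0.08 without replicate 3 (adjusted p = 1.2e-17). MT-CO1, the catalytic subunit of cytochrome oxidase, was at 4147, 4291 and 4212 with vehicle and at 1495, 1561 and 1766 with BAQ12 NPs. The log2FC of MT-CO1 was -1.39 ± 0.07 (SE, n = 3 per group, adjusted p = 1.1e-09), and -1.46 ± 0.06 without replicate 3 (adjusted p = 2.4e-16). For MT-CO2, the neighbouring oxidase subunit, replicate 3 was the lowest library. MT-CO2 was at 4747, 4133 and 4190.4 with vehicle and at 1896, 1633 and 901 with BAQ12 NPs. MT-CO2 had a log2FC of -1.63 ± 0.19 (SE, n = 3 per group, adjusted p = 8.4e-05), and -1.30 ± 0.11 without replicate 3 (adjusted p = 7.5e-10). The 12 genes include the subunits of complexes I, III, IV and V, and the next largest changes after MT-ND3 were those of MT-ND4L (-1.87) and MT-ATP6 (-1.86) with all libraries and those of MT-CO3 (-2.06) and MT-ATP6 (-1.98) without replicate 3. Of 36 nuclear genes of the respiratory chain tested, 0 passed in either direction (4 at an unadjusted p under 0.05), and their median was -0.07, or 0.04 without replicate 3.

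Among the other products of the mitochondrial genome MT-ND6, MT-RNR1 and 3 tRNAs rose and 1 tRNA fell. MT-ND6, the only mRNA read from the light strand, was at 563, 481 and 476 normalised counts with vehicle and 915, 1018 and 1379 with BAQ12 NPs. MT-ND6 rose by a log2FC of 1.10 ± 0.13 (SE, n = 3 per group, adjusted p = 5.1e-05), and 0.93 ± 0.09 without replicate 3 (adjusted p = 4e-08). MT-RNR1, the small ribosomal RNA, rose by a log2FC of 0.71 ± 0.11 (SE, n = 3 per group, adjusted p = 0.0023), and 0.54 ± 0.07 without replicate 3 (adjusted p = 7.2e-06). MT-RNR2, the large ribosomal RNA, had a log2FC of 0.29 ± 0.10 (adjusted p = 0.25, without replicate 3 0.16, adjusted p = 0.42). The pair of rRNAs took 10.7%, 11.3% and 10.8% of normalised counts with vehicle and 13.1%, 13.5% and 16.7% with BAQ12 NPs, highest in replicate 3. Of 22 tRNA genes, 18 were tested, and 3 rose and 1 fell with and without replicate 3. MT-TF, the tRNA gene before MT-RNR1, was at 3959, 3944 and 3725 with vehicle and 8538, 9902 and 18557 with BAQ12 NPs. MT-TF rose by a log2FC of 1.58 ± 0.21 (SE, n = 3 per group, adjusted p = 0.00032), and 1.25 ± 0.12 without replicate 3 (adjusted p = 4e-08). MT-TV, the tRNA gene after it, was at 275, 228 and 222 and 603, 684 and 1166 in the same order. MT-TV rose by a log2FC of 1.70 ± 0.20 (SE, n = 3 per group, adjusted p = 8.4e-05), and 1.41 ± 0.14 without replicate 3 (adjusted p = 4e-08). Replicate 3 was the highest library for both. MT-TC, on the light strand, was at 73.1, 78.2 and 79.9 with vehicle and at 316, 326 and 139 with BAQ12 NPs, with replicate 3 the lowest treated library. MT-TC rose by a log2FC of 1.65 ± 0.22 (SE, n = 3 per group, adjusted p = 0.00038), and 2.05 ± 0.12 without replicate 3 (adjusted p = 2.1e-13). MT-TI, which lies between MT-ND1 and MT-TQ, was at 104, 129.5 and 106 with vehicle and at 66.0, 52.7 and 41.5 with BAQ12 NPs. The log2FC of MT-TI was -1.08 ± 0.20 (SE, n = 3 per group, adjusted p = 0.0089), and -0.92 ± 0.19 without replicate 3 (adjusted p = 0.0053). Nuclear genes that are near copies of mitochondrial ones can share reads with them, so their counts are uncertain. Among them MTATP6P1 (-1.70, and -1.73 without replicate 3) and MTND2P28 (-1.83, and -1.82) were lower and MTRNR2L7 (2.11, and 1.77) was higher on the log2 scale. Whether the counting used strand is not settled by the sources used here, so reads of MT-ND6 and of RNA from the opposite strand cannot be told apart. The library kit is not settled either, and its part in the counts of mitochondrial mRNAs, rRNAs and tRNAs was not tested. In such bulk libraries fewer cells with an RNA and less of that RNA per cell cannot be told apart either.

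**Figure D5:**
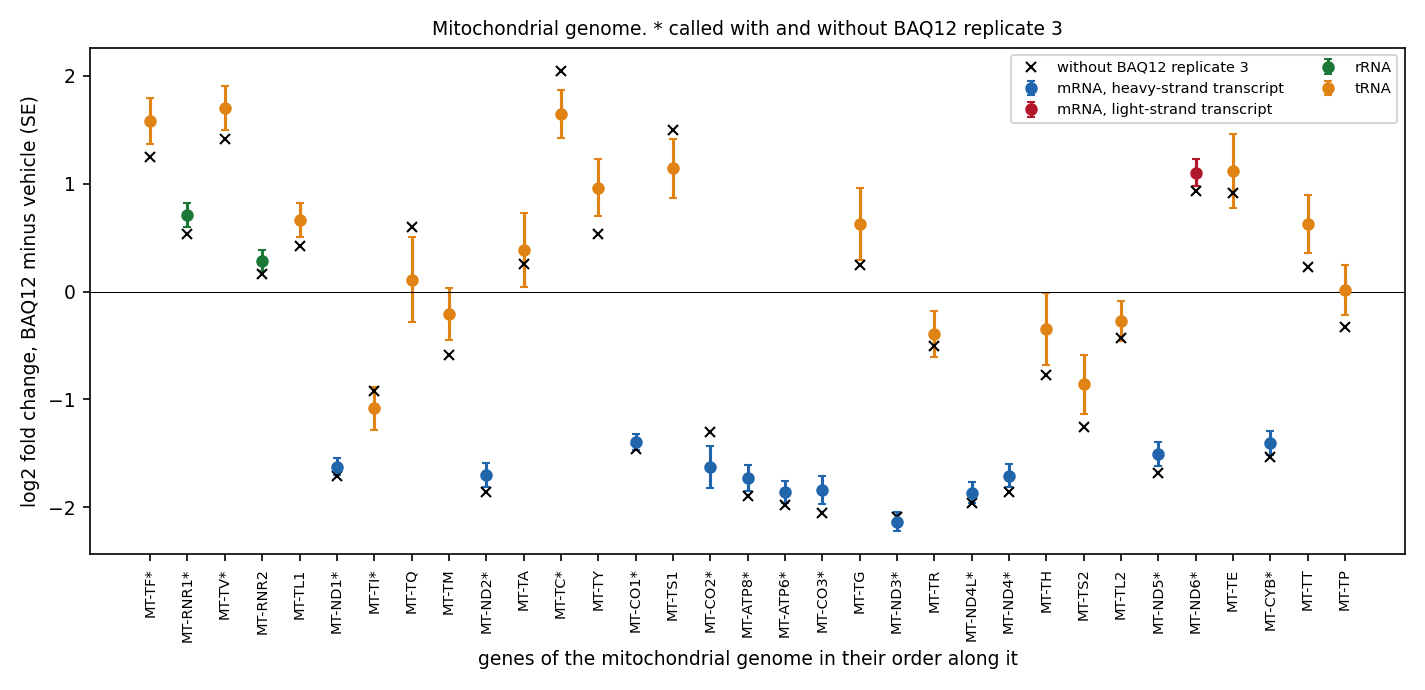
The 33 tested genes of the mitochondrial genome are drawn in their order along it, with the log2 fold change between BAQ12 NPs and vehicle in all libraries (circles, bars are the SE, n = 3 per group) and without BAQ12 replicate 3 (crosses). An asterisk marks genes that passed with and without replicate 3. The 12 heavy-strand mRNAs lie between -2.13 and -1.39, while MT-ND6, MT-RNR1, MT-TF, MT-TV and MT-TC lie above 0.

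Of 17 tested subunits of the V-ATPase, the pump that acidifies the lysosome, 0 passed by limma, edgeR or DESeq2 (3 at an unadjusted p under 0.05 by limma, and 6 without replicate 3), and their median log2 fold change was 0.18, or 0.11 without replicate 3. Among all 10495 genes, 1239 and 969 had such a p. Of the 17 subunits, 12 were above 0 and 5 below, or 13 and 4 without replicate 3. The member with the largest change was ATP6V0D1, at 36.5, 19.0 and 18.4 normalised counts with vehicle and 41.3, 30.6 and 51.5 with BAQ12 NPs. ATP6V0D1 had a log2FC of 0.76 ± 0.25 (adjusted p = 0.23, without replicate 3 0.58, adjusted p = 0.45). Of 10 cathepsins, the lysosomal proteases, 0 passed by the same tools (1 at an unadjusted p under 0.05), with a median of -0.15, or 0.03 without replicate 3, so that the sign of the median rested on that library. CTSA was at 221, 166 and 171 with vehicle and at 232, 237 and 391 with BAQ12 NPs, and its log2FC was 0.59 ± 0.17 (adjusted p = 0.16, without replicate 3 0.35, adjusted p = 0.29). CTSB was at 292, 262 and 276 with vehicle and at 246, 247 and 251 with BAQ12 NPs, slightly below vehicle in every treated library, with a log2FC of -0.16 ± 0.09 (adjusted p = 0.49, without replicate 3 -0.17, adjusted p = 0.69). Of 12 lysosomal membrane proteins 0 passed by the same tools (3 at an unadjusted p under 0.05, and 4 without replicate 3). LAMP2, an abundant glycoprotein of the membrane, was at 266, 278 and 267 with vehicle and at 330.2, 332 and 312 with BAQ12 NPs, and its treated libraries did not overlap with vehicle. LAMP2 had a log2FC of 0.26 ± 0.08 (adjusted p = 0.18, without replicate 3 0.29, adjusted p = 0.12). LAMP1 was at 187, 164 and 163 with vehicle and at 222, 184 and 206 with BAQ12 NPs (adjusted p = 0.43, and 0.58 without replicate 3). Of the chloride transporters, CLCN5, CLCN6 and CLCN7 had adjusted p = 0.47, 0.97 and 0.45, and 0.7, 0.46 and 0.82 without replicate 3.

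Of the lysosomal genes NEU1, NPC2, SLC17A5, RRAGD and FLCN rose with and without replicate 3, as did 0.534% of all genes tested. NEU1, the lysosomal sialidase (ENSG00000204386, chromosome 6, 31857659 to 31862906 in GRCh38), was at 36.5, 22.3 and 31.2 normalised counts with vehicle and 72.5, 56.1 and 46.5 with BAQ12 NPs, and the groups did not overlap. It rose by a log2FC of 0.94 ± 0.19 (SE, n = 3 per group, adjusted p = 0.019), and 1.09 ± 0.19 without replicate 3 (adjusted p = 0.0012), and lost the call without vehicle replicate 2 or 3 or BAQ12 replicate 1 or 2 (highest adjusted p = 0.15). With NPC2 it was 1 of 2 genes of 35 lysosomal hydrolases and activators that passed. SLC17A5, the sialic acid exporter sialin (ENSG00000119899, chromosome 6, 73593379 to 73654155 in GRCh38), was at 76.4, 69.2 and 64.3 with vehicle and at 138, 125 and 161 with BAQ12 NPs. SLC17A5 rose by a log2FC of 1.00 ± 0.12 (SE, n = 3 per group, adjusted p = 8.6e-05), and 0.90 ± 0.13 without replicate 3 (adjusted p = 3.2e-05). It was the only gene of 19 lysosomal channels and transporters to pass, and it kept the call in every fit that left out 1 library. RRAGD and FLCN, a small GTPase that brings mTORC1 to the lysosome and its GTPase-activating protein, rose among 24 genes of lysosome biogenesis and sorting. RRAGD was at 120.4, 112 and 118 with vehicle and at 183, 185 and 244 with BAQ12 NPs. RRAGD rose by a log2FC of 0.79 ± 0.12 (SE, n = 3 per group, adjusted p = 0.0013), and 0.65 ± 0.11 without replicate 3 (adjusted p = 0.00065). FLCN was at 73.1, 61.4 and 56.0 with vehicle and at 127, 104 and 151 with BAQ12 NPs. FLCN rose by a log2FC of 0.98 ± 0.16 (SE, n = 3 per group, adjusted p = 0.0028), and 0.85 ± 0.16 without replicate 3 (adjusted p = 0.0017). Both kept the call in every fit that left out 1 library, and replicate 3 was the highest library for each.

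Of 41 autophagy genes, SQSTM1 and OPTN rose with and without replicate 3 and 0 fell, against 0.534% of all genes higher. SQSTM1, the cargo receptor p62, was at 282, 309 and 312 normalised counts with vehicle and 399, 430.1 and 578 with BAQ12 NPs. SQSTM1 rose by a log2FC of 0.62 ± 0.11 (SE, n = 3 per group, adjusted p = 0.0066), and 0.46 ± 0.09 without replicate 3 (adjusted p = 0.002). It was also the only 1 of the 13 tested genes measured by qPCR in the study that passed, and without vehicle replicate 1 its adjusted p was 0.058. Of those 13 genes, 5 had an unadjusted p under 0.05 by limma, and 9 without replicate 3. Among all 10495 genes the counts were 1239 and 969. The log2 fold change was above 0 for 12 of the 13 and below 0 for 1 in each fit. These counts are descriptions. OPTN, the receptor optineurin, was at 164, 146 and 151 with vehicle and at 221, 204 and 221 with BAQ12 NPs, a narrow range on each side. OPTN rose by a log2FC of 0.48 ± 0.11 (SE, n = 3 per group, adjusted p = 0.039), and 0.46 ± 0.11 without replicate 3 (adjusted p = 0.03), and lost the call when any 1 of the other 5 libraries was left out (highest adjusted p = 0.22). ATG2A, a lipid transfer protein of the growing autophagosome, was at 59.8, 36.8 and 32.1 with vehicle and at 60.5, 68.9 and 112 with BAQ12 NPs, with a log2FC of 0.89 ± 0.28 (adjusted p = 0.19, without replicate 3 0.63, adjusted p = 0.34). Of 18 genes of the response to damaged lysosomes, 0 passed by limma, edgeR or DESeq2 (4 at an unadjusted p under 0.05).

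Of 12 genes of the BCL2 family tested, 0 passed by limma, edgeR or DESeq2 (3 at an unadjusted p under 0.05). The 5 proapoptotic members given here are ones the study names in these treatments. How they were chosen is not stated, so they are not taken as independent evidence of a direction. BAX was at 64.8, 65.9 and 67.9 normalised counts with vehicle and 55.0, 62.9 and 159.5 with BAQ12 NPs, so that replicates 1 and 2 were below vehicle and replicate 3 far above it, and its log2 fold change was 0.31 ± 0.28 (adjusted p = 0.66, without replicate 3 -0.17, adjusted p = 0.87). BBC3, which encodes PUMA, was at 478, 564 and 559.9 with vehicle and at 664, 629 and 191 with BAQ12 NPs, with replicates 1 and 2 above vehicle and replicate 3 far below, and its log2FC was -0.31 ± 0.31 (adjusted p = 0.69, without replicate 3 0.28, adjusted p = 0.44). The sign of both depended on replicate 3. BAK1 was at 47.3, 48.0 and 45.0 with vehicle and at 45.9, 48.5 and 65.3 with BAQ12 NPs (adjusted p = 0.78, and 0.997 without replicate 3), BAD at 18.3, 21.2 and 12.9 with vehicle and at 16.5, 23.8 and 33.9 with BAQ12 NPs (adjusted p = 0.49, and 0.92), and BCL2L11, which encodes BIM, at 41.5, 32.4 and 36.7 with vehicle and at 43.1, 36.6 and 38.9 with BAQ12 NPs (adjusted p = 0.8, and 0.94). The 95% interval of the log2 fold change was -0.29 to 0.91 for BAX, -0.34 to 0.67 for BAK1, -0.11 to 1.02 for BAD, -0.24 to 0.44 for BCL2L11 and -0.96 to 0.35 for BBC3. Without replicate 3 it was -0.54 to 0.20 for BAX, -0.47 to 0.49 for BAK1, -0.36 to 0.77 for BAD, -0.29 to 0.51 for BCL2L11 and 0.03 to 0.52 for BBC3, the last lying above 0 although its adjusted p missed the threshold.

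Of 34 genes of DNA replication tested, MCM10, CDC6 and PCNA fell with and without replicate 3 and 0 rose, against 0.353% of all genes lower. The log2 fold change was below 0 for 33 of the 34, and for 34 without replicate 3, with medians of -0.40 and -0.38. The libraries did not overlap for 19 of the 34, all lower, against 7.61% of all genes. In the list of 34 genes of mitosis 0 passed by limma, edgeR or DESeq2 (4 at an unadjusted p under 0.05), 17 were below 0, and the median was 0.001, or 0.009 without replicate 3. The difference between these lists was not tested.

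The promoters of CDC6, PCNA and DTL are printed to show the matches to the E2F consensus in front of genes that fell, with the same window, build and source as above and with TTTNNCGC in capitals on either strand. They lie at chr17:40287629-40287928 (plus strand), chr20:5126573-5126872 (minus strand) and chr1:212035498-212035797 (plus strand).
CDC6: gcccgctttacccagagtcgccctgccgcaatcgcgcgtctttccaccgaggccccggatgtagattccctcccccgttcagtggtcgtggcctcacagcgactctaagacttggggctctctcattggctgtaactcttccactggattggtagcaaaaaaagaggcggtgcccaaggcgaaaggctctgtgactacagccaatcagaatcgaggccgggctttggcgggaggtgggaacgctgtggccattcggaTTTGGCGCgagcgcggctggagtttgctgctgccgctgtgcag
PCNA: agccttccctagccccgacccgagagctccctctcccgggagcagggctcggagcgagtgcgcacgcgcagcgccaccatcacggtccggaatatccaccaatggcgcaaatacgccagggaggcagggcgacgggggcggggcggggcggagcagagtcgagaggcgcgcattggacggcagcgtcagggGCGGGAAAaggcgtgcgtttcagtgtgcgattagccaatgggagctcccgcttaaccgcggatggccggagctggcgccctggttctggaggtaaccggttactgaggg
DTL: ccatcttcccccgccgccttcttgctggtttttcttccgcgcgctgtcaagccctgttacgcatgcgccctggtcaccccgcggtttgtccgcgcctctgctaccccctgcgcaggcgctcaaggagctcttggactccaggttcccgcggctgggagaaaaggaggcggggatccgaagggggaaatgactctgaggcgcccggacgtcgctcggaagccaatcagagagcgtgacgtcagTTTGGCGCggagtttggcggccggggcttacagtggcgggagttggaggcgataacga
The letters TTTNNCGC were found in 17 of the 30 matched promoters of the DNA replication list (56.7%) and in 6 of the 14 matched promoters of all genes that fell with and without replicate 3 (42.9%), against 6.9% of all 27305 promoters. The promoter of MCM10, which belongs to both of these sets, held no such match. In the promoters printed here, which were picked to show a match, no match overlapped a CCAAT box. CCAAT was found in 9 of those 14 promoters (64.3%) and in 25 of the 34 matched promoters of genes that rose (73.5%).

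MCM10, which helps to activate the replicative helicase (ENSG00000065328, chromosome 10, 13161554 to 13211104 in GRCh38), was at 113, 104 and 110.2 normalised counts with vehicle and 53.2, 60.4 and 60.3 with BAQ12 NPs, with all treated libraries near a common value. Its log2FC was -0.90 ± 0.14 (SE, n = 3 per group, adjusted p = 0.0015), and -0.93 ± 0.16 without replicate 3 (adjusted p = 0.00076), and it kept the call in every fit that left out 1 library. CDC6, a licensing factor of replication origins, was at 82.2, 74.8 and 90.0 with vehicle and at 33.9, 43.4 and 47.7 with BAQ12 NPs. The log2FC of CDC6 was -0.98 ± 0.20 (SE, n = 3 per group, adjusted p = 0.02), and -1.08 ± 0.21 without replicate 3 (adjusted p = 0.0029). It lost the call when any 1 of the other 5 libraries was left out (highest adjusted p = 0.14). PCNA, the sliding clamp, was at 180.2, 197 and 200.1 with vehicle and at 128, 145 and 67.8 with BAQ12 NPs, with replicate 3 by far the lowest. The log2 fold change of PCNA was -0.82 ± 0.19 (SE, n = 3 per group, adjusted p = 0.0498), and -0.49 ± 0.12 without replicate 3 (adjusted p = 0.027), and without any 1 of the vehicle libraries it did not pass (highest adjusted p = 0.22). Outside the list, and named after their values were seen, DTL, HELLS, XRCC2, CDCA7 and FAM111B, also fell with and without replicate 3. Of the 6 fits that left out 1 library, CDCA7 passed in 1, DTL and XRCC2 in 2, and HELLS and FAM111B in 3 (highest adjusted p between 0.12 and 0.29). DTL, a substrate receptor of a ubiquitin ligase, was at 125, 149 and 149.6 with vehicle and at 78.9, 89.3 and 104 with BAQ12 NPs (-0.64 on the log2 scale, adjusted p = 0.019, and 0.0018 without replicate 3). XRCC2, a homologous recombination protein, was at 92.2, 88.2 and 91.8 with vehicle and at 56.9, 43.4 and 50.2 with BAQ12 NPs (-0.85, adjusted p = 0.023, and 0.014).

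In the integrated stress response, 1 of 23 genes tested rose and 1 fell with and without replicate 3, against 0.534% and 0.353% of all genes. The list held 11 genes at an unadjusted p under 0.05 by limma, and 7 without replicate 3. The libraries did not overlap for 2 higher and 6 lower members, against 7.75% and 7.61% of all genes. In each fit 9 members were above 0 and 14 below. GDF15, the secreted growth differentiation factor, was at 42.3, 30.1 and 38.6 normalised counts with vehicle and 64.2, 70.6 and 55.3 with BAQ12 NPs. GDF15 rose by a log2FC of 0.77 ± 0.16 (SE, n = 3 per group, adjusted p = 0.022), and 0.86 ± 0.17 without replicate 3 (adjusted p = 0.0033). SLC7A5, the large neutral amino acid transporter, was at 218, 218 and 221 with vehicle and at 153, 153 and 111 with BAQ12 NPs. The log2FC of SLC7A5 was -0.67 ± 0.13 (SE, n = 3 per group, adjusted p = 0.013), and -0.51 ± 0.11 without replicate 3 (adjusted p = 0.014). The calls were lost without vehicle replicate 2 or 3 or BAQ12 replicate 1 or 2 for GDF15 and without any 1 vehicle library for SLC7A5 (highest adjusted p = 0.18 and 0.074). In the unfolded protein response 0 of 20 passed, although 18 were below 0, or 14 without replicate 3. In the heat shock list 0 of 13 passed, in the list of p53 targets and G1 control 0 of 25, in the interferon list 0 of 12 and in the inflammatory and immediate-early list 0 of 18. None of these lists had a call by edgeR or DESeq2, and at an unadjusted p under 0.05 by limma they held 4, 2, 2, 1 and 2 genes. HMOX1, the heme oxygenase, was at 47.3, 45.8 and 45.0 with vehicle and at 67.0, 82.5 and 181 with BAQ12 NPs. HMOX1 had a log2FC of 1.10 ± 0.28 (adjusted p = 0.082, without replicate 3 0.68, adjusted p = 0.095). Of 48 cytosolic ribosomal proteins 0 passed by the same tools (3 at an unadjusted p under 0.05), with 22 above 0 in all libraries and 44 without replicate 3.

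Several of the largest changes lay outside these groups. ALDOC, the brain-type aldolase of glycolysis (ENSG00000109107, chromosome 17, 28573115 to 28577264 in GRCh38), was at 10.8, 12.3 and 8.26 normalised counts with vehicle and 25.7, 34.9 and 46.5 with BAQ12 NPs. It was the only 1 of 29 genes of hypoxia and glycolysis to pass. ALDOC had a log2FC of 1.66 ± 0.28 (SE, n = 3 per group, adjusted p = 0.0043), and 1.45 ± 0.29 without replicate 3 (adjusted p = 0.0039). CLIP2, a linker of microtubules, was at 41.5, 33.5 and 26.6 with vehicle and at 66.0, 73.1 and 191 with BAQ12 NPs, and replicate 3 stood far above the other treated libraries. CLIP2 rose by a log2FC of 1.52 ± 0.32 (SE, n = 3 per group, adjusted p = 0.025), and 1.04 ± 0.22 without replicate 3 (adjusted p = 0.0099), and did not pass without any 1 of the vehicle libraries (highest adjusted p = 0.17). FAM213A, also known as PRXL2A, was at 1.66, 4.47 and 5.51 with vehicle and at 13.8, 11.9 and 11.3 with BAQ12 NPs, that is at few reads. FAM213A rose by a log2FC of 1.54 ± 0.31 (SE, n = 3 per group, adjusted p = 0.017), and 1.60 ± 0.35 without replicate 3 (adjusted p = 0.013). Its call was lost without vehicle replicate 1 or BAQ12 replicate 1 or 2 (highest adjusted p = 0.071). The transcript RP11-1113L8.7 was at 19.9, 25.7 and 13.8 with vehicle and at 41.3, 57.8 and 167 with BAQ12 NPs. It rose by a log2FC of 1.89 ± 0.39 (SE, n = 3 per group, adjusted p = 0.022), and 1.30 ± 0.27 without replicate 3 (adjusted p = 0.0072), and lost the call without vehicle replicate 1 or 3 (highest adjusted p = 0.16). Among the decreases, the 10 largest were all mitochondrial mRNAs or their nuclear copies. PHLDB2, a cortical protein that anchors microtubules at focal adhesions, was at 395, 418 and 377 with vehicle and at 212, 258 and 214 with BAQ12 NPs. PHLDB2 had a log2FC of -0.80 ± 0.10 (SE, n = 3 per group, adjusted p = 8.4e-05), and -0.76 ± 0.10 without replicate 3 (adjusted p = 1.1e-05), and it kept the call in every fit that left out 1 library.

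The structures of BAQ12 and BAQ13 differ by a methylene unit. Both were given as NPs at 5 µM for 24 h. The difference was taken directly between their libraries, while the spread behind the p-values came from the fit on all 15 libraries, vehicle included. With BAQ12 NPs 6 genes were higher (0.0572%) and 53 lower (0.505%) than with BAQ13 NPs, and the same 6 and 53 passed without replicate 3, where 153 (1.46%) and 179 (1.71%) passed in all. The total of 59 became 332 without BAQ12 replicate 3, 32 and 34 without BAQ13 replicate 2 or 3, and 9 in a fit on the 6 libraries of these groups. The cholesterol genes were lower with BAQ12 NPs than with BAQ13 NPs. Of the 20, 13 passed with and without replicate 3, all lower, with a median difference of -0.92 on the log2 scale (-0.91 without replicate 3). MSMO1, at 166, 187 and 178 with BAQ12 NPs, was at 488, 472 and 448 normalised counts with BAQ13 NPs, a difference of -1.40 (adjusted p = 4.1e-05, and 5.7e-07 without replicate 3). SQLE was at 551, 513 and 464 with BAQ13 NPs, a difference of -1.12 (adjusted p = 5.6e-06, and 1.1e-08). For FDPS, at 1312, 1155 and 1016 with BAQ13 NPs, the difference of -0.60 (95% interval -0.90 to -0.30) did not pass in all libraries (adjusted p = 0.081) and passed without replicate 3 (adjusted p = 1.9e-06). In fatty acid synthesis 5 of 15 were lower than with BAQ13 NPs and 0 higher, or 6 and 0 without replicate 3. SQSTM1 and OPTN were lower than with BAQ13 NPs by 0.59 and 0.65 on the log2 scale (adjusted p = 0.016 and 0.0056), and by 0.75 and 0.67 without replicate 3 (adjusted p = 2.3e-06 and 0.00056).

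In the V-ATPase list, the lysosomal hydrolases and the DNA replication list, 0 genes passed between BAQ12 and BAQ13 NPs by limma or edgeR with all libraries (2, 10 and 7 at an unadjusted p under 0.05, against 868 of all 10495 genes), with median differences of -0.17, -0.15 and 0.12. Without replicate 3, 0, 1 and 3 passed by limma, with medians of -0.21, -0.10 and 0.14. These were NPC2, which was lower with BAQ12 NPs by 0.47 on the log2 scale (adjusted p = 0.016), and MCM2, PCNA and GINS4, which were higher by 0.83, 0.55 and 0.55 (adjusted p = 0.025, 0.0073 and 0.024). For NEU1 the difference was -0.71 with a 95% interval of -1.11 to -0.31 (-0.96 to -0.16 without replicate 3), for FLCN 0.00 (-0.34 to 0.34, and -0.45 to 0.19) and for MCM10 0.26 (-0.03 to 0.56, and -0.09 to 0.56). The p-values of these 3 genes miss the threshold in both fits, which does not show that the particles act alike. All 12 heavy-strand mitochondrial mRNAs were lower with BAQ12 than with BAQ13 NPs, with a median difference of -0.31 (-0.43 without replicate 3), and MT-ND3 and MT-ATP6 passed with and without replicate 3, where 10 of the 12 passed in all. MT-ND3 was at 2869, 3063 and 3434 with BAQ13 NPs, a difference of -0.45 (adjusted p = 0.017, and 0.0033 without replicate 3).

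Lys05, whose elements went into BAQ12, was compared in the same way at 5 µM for 24 h. With BAQ12 NPs 14 genes were higher (0.133%) and 3 lower (0.0286%) than with Lys05, and 13 and 3 of them passed with and without replicate 3 (0.124% and 0.0286%). The total of 17 became 8 without any 1 of the Lys05 libraries, 26 without BAQ12 replicate 3, and 0 in a limma fit on the 6 libraries of these groups (378 at an unadjusted p under 0.05), while edgeR on all libraries called 17. This comparison shares the BAQ12 libraries with that against BAQ13. Of the 20 cholesterol genes, 7 were higher than with Lys05 with and without replicate 3 and 0 lower, and the median difference was 0.61, or 0.74 without replicate 3. FDPS was at 369, 326 and 373 normalised counts with Lys05, a difference of 1.10 (adjusted p = 0.0016, and 2.6e-06 without replicate 3). FASN, at 626, 624 and 684 with Lys05, differed by 0.63 (adjusted p = 0.0016, and 4.7e-05). All 12 heavy-strand mRNAs were higher with BAQ12 NPs than with Lys05, with a median difference of 0.47 (0.35 without replicate 3), and 4 of them passed with and without replicate 3. MT-ND1 was at 1218, 1149.7 and 1216 with Lys05, a difference of 0.43 (adjusted p = 0.021, and 0.0067). Of the V-ATPase, cathepsin, autophagy and DNA replication genes 0 passed against Lys05 by limma or edgeR (0, 1, 4 and 1 at an unadjusted p under 0.05, against 752 of all 10495 genes), and 0 by limma without replicate 3.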

How the data were processed

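RNA was measured by RNA-seq in 15 libraries of MIA PaCa-2 cells, 3 in each of 5 groups, and 6 of them are described here. Per the submitters' processing notes, reads were aligned with STAR to GRCh38 (hg38), counted per gene with HTSeq and normalised with DESeq2. The deposited values are a signal in which the authors divided each gene's read count by a size factor of the library. Every value was a whole multiple of the worth of 1 read (100% within a tolerance of 0.01), so reads were recovered. The labels name a 3′ tag library kit and the study's methods a stranded paired-end kit. Which was used, and whether counting used strand, is not settled. The 92 spike-in rows held 0 reads and were left out.

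Genes were kept by edgeR's filterByExpr on the recovered reads (minimum count 10, total 15). Log2(normalised count + 1) was fitted with limma 3.58.1 (trend) in R 4.3.3 over all 15 libraries with group as the only term, and again without BAQ12 replicate 3. Fold changes are on this scale, which understates the change of low genes. P-values are two-sided, with Benjamini-Hochberg adjustment over the 10495 genes, and 0.05 as the threshold. Intervals at 95% are from the same fit. Alternatives were edgeR 4.0.16 (quasi-likelihood) and DESeq2 1.42.0 on the recovered reads (102 and 112 genes called), other scalings, filters, pseudocounts and sets of libraries. The tests were checked on simulated counts with known changes. The simulation held no deviating library, so it cannot vouch for calls made with BAQ12 replicate 3. Gene coordinates are from GENCODE 29 on GRCh38 (56531 of 60107 identifiers matched) and promoters from RefSeq on GRCh38.p14. Motifs were searched as exact letters on both strands.

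The comparison, gene lists and markers were chosen with earlier results of these data known. Genes were named if they were among the 10 largest increases or decreases that passed with and without replicate 3 with groups not overlapping, list members of the smallest adjusted p or that passed in both fits, genes the study measured by qPCR or called proapoptotic, markers, the 5 genes furthest above and below in replicate 3, or the 5 largest differences in each direction against BAQ13 and Lys05. Others are named as chosen after their values were seen, and some genes are not reported here.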

Additional observations from a re-analysis of the deposited data

Results flagged for a closer look

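The results here were picked out because the effect of BAQ12 NPs differed from that of another compound in a direct limma test, and they are the largest such differences in each direction that passed with and without BAQ12 replicate 3. They are given as log2 differences with normalised counts as means of 3 libraries. Against BAQ13 NPs, the following 5 of 6 genes were higher with BAQ12 NPs. The transcript RP5-943J3.2 differed by 0.92 (adjusted p = 0.037, and 0.93 with adjusted p = 0.019 without replicate 3), at 41.9 with BAQ12 NPs, 22.2 with BAQ13 and 51.6 with vehicle. VEPH1, a pleckstrin homology protein, differed by 0.64 (adjusted p = 0.029, and 0.62 with adjusted p = 0.019 without replicate 3), at 84.1 with BAQ12 NPs, 53.3 with BAQ13 and 86.5 with vehicle. PHLDB2 differed by 0.56 (adjusted p = 0.0061, and 0.60 with adjusted p = 0.00045 without replicate 3), at 228 with BAQ12 NPs, 153 with BAQ13 and 397 with vehicle. CTSC, the lysosomal cathepsin C, differed by 0.49 (adjusted p = 0.0056, and 0.59 with adjusted p = 1.1e-06 without replicate 3), at 2359.6 with BAQ12 NPs, 1674 with BAQ13 and 2594 with vehicle. IGF2BP3, an RNA-binding protein, differed by 0.36 (adjusted p = 0.022, and 0.38 with adjusted p = 0.0035 without replicate 3), at 849 with BAQ12 NPs, 660.5 with BAQ13 and 934 with vehicle. Between BAQ12 NPs and vehicle, PHLDB2 fell. RP5-943J3.2, VEPH1, CTSC and IGF2BP3 did not pass there by limma (adjusted p = 0.54, 0.91, 0.48 and 0.45), nor without replicate 3.

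The 5 largest differences in the other direction included 3 genes of the sterol pathway. HMGCS1 differed by -2.27 (adjusted p = 3.3e-05, and -1.86 with adjusted p = 9.3e-11 without replicate 3), at 135 with BAQ12 NPs, 611 with BAQ13 and 57.3 with vehicle. INSIG1 differed by -1.51 (adjusted p = 5.6e-06, and -1.38 with adjusted p = 1.1e-08 without replicate 3) and IDI1 by -1.49 (adjusted p = 0.0099, and -1.08 with adjusted p = 0.00077 without replicate 3). SLC2A6, a lysosomal hexose transporter, differed by -1.58 (adjusted p = 0.00062, and -1.50 with adjusted p = 0.00012 without replicate 3), and BIRC3, an inhibitor of apoptosis that acts in NF-kappaB signalling, by -1.57 (adjusted p = 0.00013, and -1.56 with adjusted p = 2.3e-05 without replicate 3).

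Against Lys05, the 5 largest increases were all genes of sterol synthesis or acetyl-CoA supply. ACSS2 differed by 1.36 (adjusted p = 0.0066, and 1.30 with adjusted p = 0.002 without replicate 3), at 62.4 with BAQ12 NPs, 23.8 with Lys05 and 25.1 with vehicle. MSMO1 differed by 1.33 (adjusted p = 0.00052, and 1.32 with adjusted p = 3.2e-06 without replicate 3) and LSS by 1.19 (adjusted p = 0.0055, and 0.98 with adjusted p = 0.0018 without replicate 3). FDPS differed by 1.10 (adjusted p = 0.0016, and 0.87 with adjusted p = 2.6e-06 without replicate 3) and FDFT1 by 0.82 (adjusted p = 0.0044, and 0.94 with adjusted p = 3.2e-06 without replicate 3). The 3 genes that were lower were GPR126, an adhesion receptor, by -0.55 (adjusted p = 0.0075, and -0.47 with adjusted p = 0.0034 without replicate 3), PHLDB2 by -0.53 (adjusted p = 0.027, and -0.49 with adjusted p = 0.022 without replicate 3) and the small Cajal body RNA SCARNA9 by -0.51 (adjusted p = 0.031, and -0.41 with adjusted p = 0.036 without replicate 3).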

How the results depend on the processing

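Counts of genes that passed by limma depended on which libraries set the spread. The 103 genes became 31 in a fit on the 6 libraries compared, 325 on the 5 libraries left without BAQ12 replicate 3 and 626 with library weights, which gave that replicate a weight of 0.125, and ranged from 56 to 137 over fits that left out a single library. The 60 higher genes became 15, 178 and 344 in the same order (35 to 78), and the 43 lower genes 16, 147 and 282 (20 to 59), 67 with edgeR without replicate 3 and 68 with a correction for GC content without it. The 41 list members became 24, 85 and 109, and the 137 genes called without replicate 3 became 325 on those 5 libraries. The 108 genes past a fold change of 2 became 425 with no filter on low values, 40 with at least 10 reads in every library and 42 with a pseudocount of 5 (101 to 243 with a library left out). Against BAQ13 NPs the 59 genes became 9 on the 6 libraries compared (32 to 332), and against Lys05 the 17 became 0 (8 to 26). BBC3 and TMSB4X changed sign and passed on the 5 libraries without replicate 3, at log2 fold changes of 0.279 (adjusted p = 0.00412) and 0.351 (adjusted p = 4.84e-06). The cause of these shifts was not tested. Of 61 genes named that passed, 25 passed under all of the 21 alternatives that gave them a value. The GC corrections were added after seeing the data. The deviations of same-numbered vehicle and BAQ12 libraries from their group means correlated at -0.13, 0.03 and -0.12. BAQ12 replicate 3 pulls its group mean and so shapes the deviations of replicates 1 and 2. These correlations therefore cannot decide whether the numbers pair the libraries. A fit with a replicate block gave 77 genes, 46 higher and 31 lower, with 37 list members, 110 genes past a fold change of 2, 48 genes against BAQ13 NPs and 16 against Lys05. With 3 libraries a group and 1754599 to 2500551 reads a library, genes of few reads are measured with large errors.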

Other observations

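Other genes passed with and without BAQ12 replicate 3 and belong to none of the function lists, although COL1A2 and KRT8 are in the marker lists. The following were chosen after their values were seen, so that they stand for single genes and no group. SRSF2, a splicing factor, was at 582, 557 and 576 normalised counts with vehicle and 407, 445 and 313 with BAQ12 NPs, a log2FC of -0.57 (adjusted p = 0.02 by limma, and 0.014 without replicate 3). SRSF6, another of that family, was at 288, 324 and 290.1 normalised counts with vehicle and 204, 244 and 185 with BAQ12 NPs, a log2FC of -0.52 (adjusted p = 0.033 by limma, and 0.04 without replicate 3). SRSF2 lost the call without any 1 of the vehicle libraries, and SRSF6 also without BAQ12 replicate 1 (highest adjusted p = 0.101 and 0.22).

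The collagen genes COL1A2 and COL5A2 also fell. COL1A2 was at 215, 213 and 252 normalised counts with vehicle and 149, 156 and 154 with BAQ12 NPs, a log2FC of -0.56 (adjusted p = 0.011 by limma, and 0.0047 without replicate 3). COL5A2 was at 1059, 1114 and 1123 normalised counts with vehicle and 906, 890.0 and 921 with BAQ12 NPs, a log2FC of -0.28 (adjusted p = 0.045 by limma, and 0.021 without replicate 3). KRT8, a keratin of simple epithelia, was at 315, 349.5 and 330.5 normalised counts with vehicle and 238, 235 and 193 with BAQ12 NPs, a log2FC of -0.58 (adjusted p = 0.0061 by limma, and 0.0061 without replicate 3). The call was lost without vehicle replicate 3 for COL1A2, without vehicle replicate 2 for KRT8 and, for COL5A2, when any 1 library but BAQ12 replicate 3 was left out (highest adjusted p = 0.1, 0.0533 and 0.22). Each of these 3 was lower in every BAQ12 library than in every vehicle library.

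Of the genes that rose, NEAT1, the long noncoding RNA that builds paraspeckles, was at 1597, 1508 and 1431 normalised counts with vehicle and 1954, 1936 and 2025 with BAQ12 NPs, a log2FC of 0.38 (adjusted p = 0.0066 by limma, and 0.0021 without replicate 3). UCA1 was at 238, 199 and 211 normalised counts with vehicle and 352, 361 and 348 with BAQ12 NPs, a log2FC of 0.71 (adjusted p = 0.00018 by limma, and 1e-05 without replicate 3). DBP, a clock-controlled transcription factor, was at 54.0, 58.1 and 64.3 normalised counts with vehicle and 99.0, 96.9 and 95.5 with BAQ12 NPs, a log2FC of 0.72 (adjusted p = 0.014 by limma, and 0.0072 without replicate 3), and UAP1L1 was at 25.7, 33.5 and 35.8 normalised counts with vehicle and 83.5, 83.3 and 108 with BAQ12 NPs, a log2FC of 1.51 (adjusted p = 4.6e-05 by limma, and 4.5e-06 without replicate 3). NEAT1 lost the call without vehicle replicate 3 and DBP without vehicle replicate 1 or 2 (highest adjusted p = 0.0739 and 0.0769), while UCA1 and UAP1L1 kept it in the 6 fits that left out 1 library.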
